A study of Mus musculus with 6 samples.

Results

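The genes described here are 10 members of the AP-1 family and its fellow immediate early genes: Fos, Fosb, Fosl1 and Fosl2 of the Fos family, Jun, Junb and Jund of the Jun family, and Atf3, Dusp1 and Nr4a1. They were taken by symbol from a table of 24411 genes, all 10 were found, and 9 of them passed the filter on low counts that left 13466 genes for testing. The RNA, taken from Achilles tendons at 18 weeks of age in C57BL/6 mice, was sequenced as 6 libraries. In 3 libraries the genotype was WT. In the other 3 it was Scx-Cre/Piezo1 GOF, that is, a gain-of-function allele of the mechanically gated cation channel Piezo1 together with a Cre recombinase under the tendon transcription factor gene Scx, so that the allele is meant for cells of the Scx lineage while the RNA came from the whole tissue. The WT label names no Cre, so an effect of the Cre and one of the allele cannot be told apart. The sex of the mice is not in the labels. Nothing in the labels says that the libraries came from separate animals, so a p-value here speaks of the spread among these 6 libraries alone, and that spread may be technical. Piezo1 itself was at 144, 115 and 103 CPM in WT and at 178, 128 and 152 CPM in the mutant (edgeR adjusted p = 0.442), where CPM are counts scaled to a common library size. Its level does not show whether the allele was present.

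AP-1 is a dimer of leucine zipper proteins. A Jun protein pairs with a Fos protein, with another Jun protein or with a factor such as Atf3, and the dimer binds short DNA elements in the promoters and enhancers of genes for matrix proteases, cytokines and growth regulators. Fos, Fosb, Jun, Junb, Atf3, Dusp1 and Nr4a1 are immediate early genes: calcium entry, stretch, growth factors and other stimuli switch them on within minutes through MAP kinases and the factors SRF and CREB, without new protein synthesis, and their transcripts are short-lived. Jund and Fosl2 are held at steadier levels in many tissues. In tendon, as in other loaded tissues, these genes are known as early responders to mechanical stimulation.

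Total counts per library lay between 8131527 and 17180856. All 9 tenocyte markers were detected and they summed to 4829 to 11239 CPM in WT and to 21570 to 36202 CPM in Piezo1 GOF. Skeletal muscle markers (15 genes, 14 with a negative log2 fold change) made up 4.53% to 6.67% of the counts of a WT library and 1.23% to 3.50% of those of a mutant library, and the 10 macrophage markers lay between 172 and 269 CPM in WT and between 653 and 808 CPM in Piezo1 GOF. The groups did not overlap for any of these 3 marker lists (2-sided exact permutation p = 0.1 each, the smallest that 3 against 3 allows). WT replicate 1 stood apart in Schwann cell markers (4 genes), which made up 0.197% of its counts against 0.000861% to 0.00522% in the other 5 libraries. On the CPM scale, cartilage, bone, adipocyte and neutrophil markers were higher and pericyte and smooth muscle markers lower in all mutant libraries, and the groups overlapped for endothelial and erythroid markers. Neutrophil markers summed to only 0.0639 to 0.322 CPM in WT and 1.93 to 4.29 CPM in Piezo1 GOF, with 1 of 4 genes past the filter. Adipocyte markers separated narrowly, at up to 242 CPM in WT against at least 272 CPM in the mutant, and overlapped as shares of counts. In a bulk sample, fewer cells of a type and less RNA per cell cannot be told apart. The 10 genes together took between 0.0275% and 0.0554% of counts, lowest in WT replicate 1 and highest in Piezo1 GOF replicate 1.

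Fos, which encodes the founding Fos protein, varied more between libraries of the same genotype than between the genotypes. It was at 10.8, 46.9 and 39.6 CPM in WT replicates 1 to 3 and at 56.6, 11.8 and 7.93 CPM in Piezo1 GOF replicates 1 to 3. The highest library of all was thus mutant replicate 1, the lowest mutant replicate 3, and WT replicate 1 sat with the low mutant libraries rather than with the other two WT libraries. The log2 fold change, Piezo1 GOF over WT, was -0.37 ± 0.74 (SE; edgeR adjusted p = 0.809), with a 95% interval from -2.04 to 1.31, which covers a 0.243-fold as well as a 2.47-fold level in the mutant. Fos (ENSMUSG00000021250.13) lies on the plus strand of chromosome 12 from 85473890 to 85477273 (build mm10).

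Fosb, its close relative, was low in WT replicate 1 and high in mutant replicate 1 as Fos was, at lower levels also per kilobase of exon. Its 2, 29 and 38 counts in WT and 49, 5 and 7 counts in Piezo1 GOF came to 0.215, 1.85 and 4.30 CPM and to 6.37, 0.502 and 0.519 CPM. The 2 counts of WT replicate 1 carry an exact Poisson 95% interval of 0.242 to 7.22 counts, and the 49 counts of mutant replicate 1 one of 36.3 to 64.8, so these ends of the range stay apart when counting error, the only error such intervals cover, is allowed for. The genotypes overlapped, with a log2 fold change of 0.18 ± 1.14 (edgeR adjusted p = 0.947) and a 95% interval from -2.41 to 2.77. Fosb (ENSMUSG00000003545.3) spans 19302696 to 19310051 on the minus strand of chromosome 7.

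Fosl2, which encodes the Fos-related antigen Fra-2, was steady in comparison. It was at 54.3, 71.2 and 46.3 CPM in WT and at 85.7, 57.2 and 57.7 CPM in Piezo1 GOF, again with mutant replicate 1 on top, and the log2 fold change was 0.22 ± 0.25 (edgeR adjusted p = 0.647; 95% interval -0.35 to 0.79). Fosl1, which encodes Fra-1, was close to absent from these counts. It had 2.57 estimated counts in WT replicate 2, 2.73 in mutant replicate 3 and 0 in the other 4 libraries, where a count of 0 allows up to 0.301 to 0.390 CPM (3 counts), so it was not tested and no fold is given. Fosl2 (ENSMUSG00000029135.10) spans 32135801 to 32157842 of chromosome 5 and Fosl1 (ENSMUSG00000024912.6) 5447547 to 5455946 of chromosome 19, both on the plus strand.

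Atf3, a stress-induced partner of Jun proteins, showed the order of Fos once more. It was at 12.2, 35.1 and 20.4 CPM in WT and at 30.6, 10.6 and 8.01 CPM in Piezo1 GOF. Mutant replicates 2 and 3 lay below every WT library, and mutant replicate 1 lay above WT replicates 1 and 3. The log2 fold change was -0.48 ± 0.54 (edgeR adjusted p = 0.642; 95% interval -1.69 to 0.74). Atf3 (ENSMUSG00000026628.13) spans 191170296 to 191218039 on the minus strand of chromosome 1.

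Nr4a1, the orphan nuclear receptor Nur77, behaved like Atf3 in the mutant and was steadier in WT. It was at 22.8, 41.3 and 26.2 CPM in WT and at 69.0, 18.1 and 15.0 CPM in Piezo1 GOF, so that mutant replicate 1 exceeded every other library while mutant replicates 2 and 3 lay below every WT library. The log2 fold change of 0.17 ± 0.54 (edgeR adjusted p = 0.887; 95% interval -1.06 to 1.40) averages over these values. Nr4a1 (ENSMUSG00000023034.7) spans 101254269 to 101274795 on the plus strand of chromosome 15.

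Dusp1, a nuclear phosphatase that switches MAP kinases off, was the most abundant of the 10 genes per kilobase of exon. It was at 62.3, 96.8 and 165 CPM in WT and at 192, 120.1 and 99.0 CPM in Piezo1 GOF, with the extremes again in WT replicate 1 and mutant replicate 1, and the log2 fold change was 0.34 ± 0.38 (edgeR adjusted p = 0.642; 95% interval -0.53 to 1.21). Dusp1 (ENSMUSG00000024190.7) spans 26505590 to 26562128 on the minus strand of chromosome 17 and shares exon sequence with Ergic1 on the other strand, whose mean was 50.4 ± 5.92 CPM in WT (SD, n = 3) against 63.9 ± 3.30 in the mutant. Whether strand was used in counting is not given in the sources used here, so the Dusp1 value is uncertain to the extent that reads were shared.

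**Figure D1:**
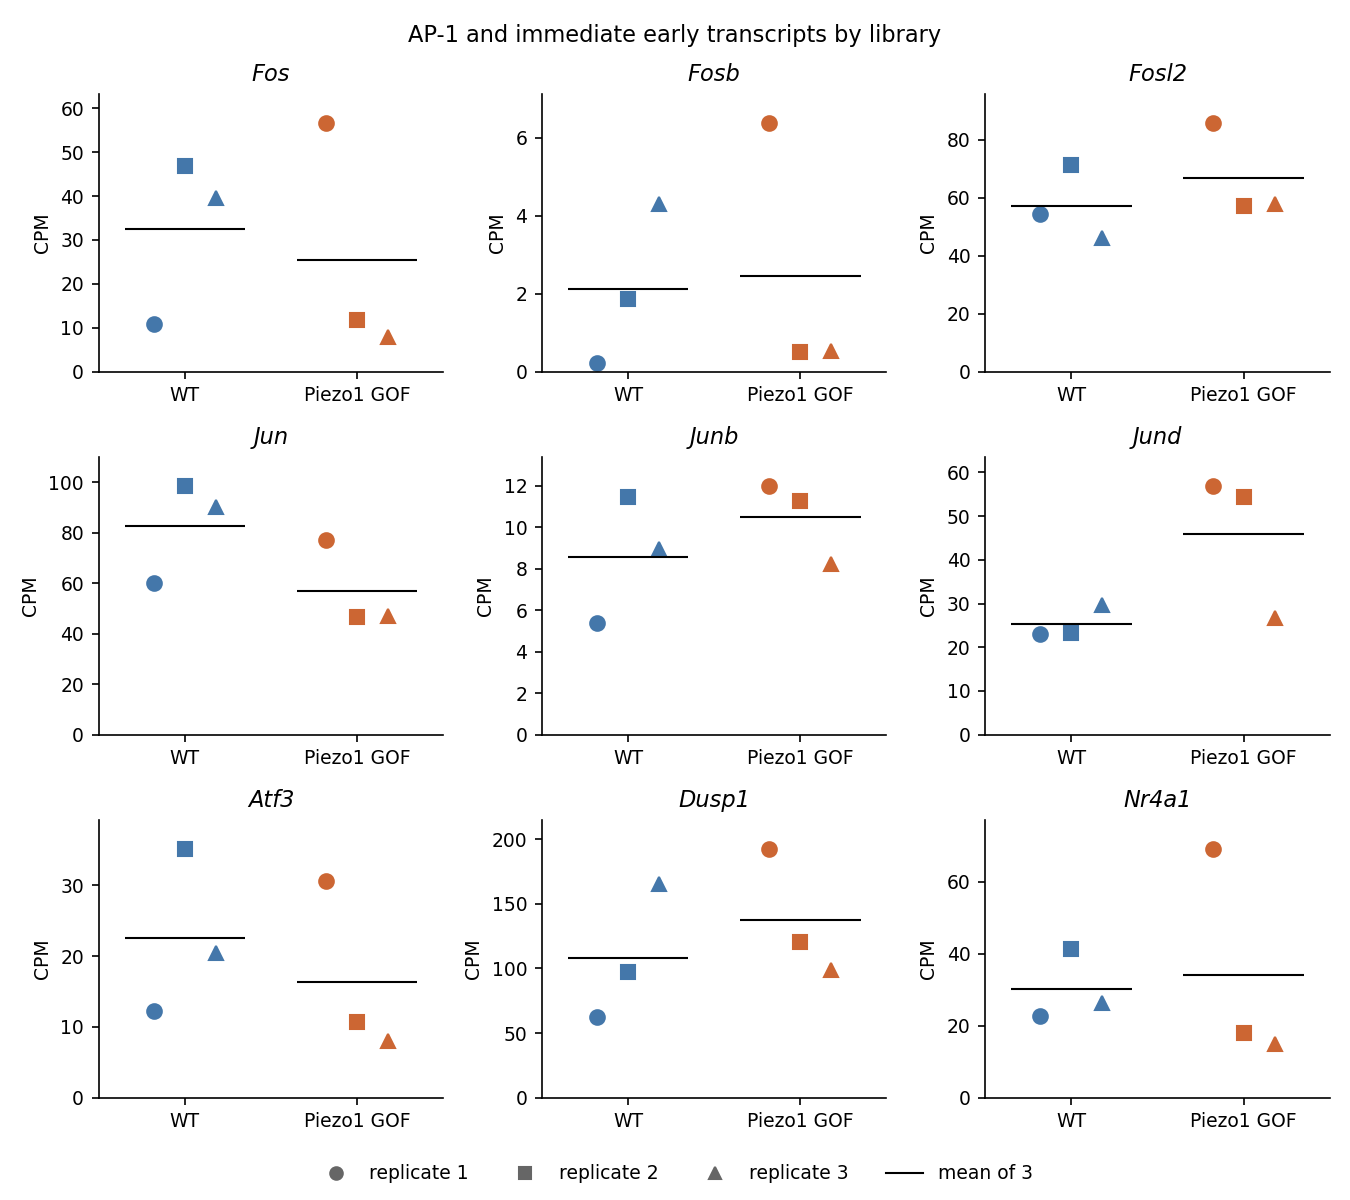
CPM of the 9 tested genes (vertical axes, each from 0) in the 3 WT and 3 Piezo1 GOF libraries, with a symbol per replicate and a bar at the mean of 3. Mutant replicate 1 is the highest mutant library in all 9 panels and WT replicate 1 the lowest WT library in 8, as for Fos with 56.6 and 10.8 CPM.

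The upstream sequences of 4 of the genes with this shared order are shown because each holds the core TGACG of the cAMP response element. CREB acts on immediate early genes through that element. Jun and Jund share the order as well, although their windows lack the core, and the sequence of Jun is shown for that reason. The window searched was the 250 bases before the start of each gene in the RefSeq promoter table (GRCm38.p6), which matched 9 of the 10 genes, all but Fosl1. Both strands were searched, and capitals mark TGACG or its complement CGTCA, alone or inside the full element TGACGTCA, with which it overlaps. The stretches below stop before the nearest annotated exon and run 5′ to 3′ on the strand of the gene.
Fos (chr12:85473740-85473889, plus strand): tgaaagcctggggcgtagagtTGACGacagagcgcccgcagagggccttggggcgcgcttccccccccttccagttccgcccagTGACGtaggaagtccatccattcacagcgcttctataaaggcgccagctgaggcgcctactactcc
Fosb (chr7:19310052-19310175, minus strand): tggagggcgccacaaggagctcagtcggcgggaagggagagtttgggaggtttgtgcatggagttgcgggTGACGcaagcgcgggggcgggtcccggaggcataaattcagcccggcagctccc
Nr4a1 (chr15:101266606-101266845, plus strand): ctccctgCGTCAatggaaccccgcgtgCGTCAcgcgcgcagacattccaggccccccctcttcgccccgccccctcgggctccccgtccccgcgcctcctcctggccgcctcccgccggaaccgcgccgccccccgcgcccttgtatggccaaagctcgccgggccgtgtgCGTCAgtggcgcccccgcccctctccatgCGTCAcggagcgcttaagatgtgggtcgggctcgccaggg
Dusp1 (chr17:26508520-26508672, minus strand): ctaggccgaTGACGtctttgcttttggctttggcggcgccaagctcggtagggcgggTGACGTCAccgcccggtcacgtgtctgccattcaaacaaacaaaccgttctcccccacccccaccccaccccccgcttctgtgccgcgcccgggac
Jun (chr4:95052223-95052372, minus strand): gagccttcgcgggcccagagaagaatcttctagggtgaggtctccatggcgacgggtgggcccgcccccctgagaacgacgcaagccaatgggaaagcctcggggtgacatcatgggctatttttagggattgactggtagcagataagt

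The core TGACG was present in 6 of the 9 windows (Fos, Fosb, Junb, Atf3, Dusp1 and Nr4a1) and in 17.8% of all 32851 windows of the table. It occurred 4 times in the window of Nr4a1 and was missing from those of Jun, Jund and Fosl2. The full element TGACGTCA was in 1 window, that of Dusp1 (1.55% of all windows), and TATAAA in 1, that of Fos (12.4% of all). The AP-1 element searched as TGANTCA and the CArG box bound by SRF were found in 0 of the 9 windows, against 6.75% and 1.47% of all windows. These matches describe letters in a short window and are no measure of binding. Elements farther upstream or spelled otherwise were not searched, so a gene without a match here may still have such sites. The printed stretch of Jun, for example, holds tgacatca, a spelling close to TGACGTCA. For Jund the RefSeq start lies upstream of the gene span in the GENCODE annotation used for coordinates. For Nr4a1 and Dusp1 it lies inside that span, so their printed stretches are within the gene as placed above. The windows of these genes need not be the promoters in use.

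Jun, the founding member of its family, was lower in 2 of the 3 mutant libraries than in every WT library. It was at 60.1, 98.5 and 90.2 CPM in WT and at 77.1, 46.8 and 47.2 CPM in Piezo1 GOF. The groups overlapped through mutant replicate 1, and the log2 fold change of -0.54 ± 0.28 did not pass (edgeR adjusted p = 0.312; 95% interval -1.18 to 0.09). Jun (ENSMUSG00000052684.4) spans 95049034 to 95052222 on the minus strand of chromosome 4 and shares exon sequence with the antisense gene Junos.

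Jund, which encodes the Jun protein known for holding back proliferation in many cells, had the largest genotype difference of the 9 tested genes. It was at 23.1, 23.3 and 29.8 CPM in WT and at 56.8, 54.3 and 26.8 CPM in Piezo1 GOF. Mutant replicates 1 and 2 lay well above all WT libraries, and mutant replicate 3 lay inside the WT range. The log2 fold change was 0.85 ± 0.30, or 1.81-fold with a 95% interval of 1.13 to 2.90 for this gene taken alone, and it did not pass over all genes (edgeR unadjusted p = 0.0194, adjusted p = 0.188). Jund (ENSMUSG00000071076.6) spans 70698949 to 70700616 on the plus strand of chromosome 8 and overlaps the antisense gene Gm11175, so that its counts are uncertain if strand was not used.

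Junb, often an antagonist of Jun at shared targets, was low and similar in both genotypes. It was at 5.37, 11.4 and 8.94 CPM in WT and at 12.0, 11.2 and 8.23 CPM in Piezo1 GOF, and WT replicate 1 was the library that stood apart, on the low side. The log2 fold change was 0.28 ± 0.34 (edgeR adjusted p = 0.672; 95% interval -0.49 to 1.05). Junb (ENSMUSG00000052837.6; chromosome 8, minus strand, 84974484 to 84978718) shares exon sequence with Prdx2, a peroxiredoxin gene on the other strand with a mean of 132 ± 14.3 CPM in WT against 111 ± 25.3 in the mutant (SD, n = 3), so its count is uncertain if strand was not used.

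Per kilobase of annotated exon, the order of levels over the 6 libraries was Dusp1, Jun, Jund, Fos, Nr4a1, Atf3, Fosl2, Junb, Fosb and Fosl1. On this scale Dusp1 averaged 37.0 CPM per kilobase (range 18.8 to 58.0), Jun 21.9 (14.7 to 30.9), Jund 21.4 (13.8 to 34.1) and Fos 12.3 (3.37 to 24.0). Nr4a1 at 9.14, Atf3 at 9.04 and Fosl2 at 6.41 CPM per kilobase were close together, as were Jun and Jund, and every neighbouring pair down to Junb at 4.14 (2.33 to 5.20) overlapped in range. Fosb at 0.367 CPM per kilobase (0.0344 to 1.02) lay below the range of Junb, and Fosl1 averaged 0.0339. On this per-length scale Jun was above Jund in WT (26.0 ± 6.32 against 15.2 ± 2.27 CPM per kilobase; SD, n = 3) and below it in Piezo1 GOF (17.9 ± 5.45 against 27.5 ± 9.99).

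Relative to Jun, Fosl2, Junb, Jund and Dusp1 stood higher in every mutant library than in any WT library. A ratio of counts of 2 genes within a library does not depend on how libraries are scaled. Jund stood at 0.384, 0.237 and 0.330 counts per count of Jun in WT and at 0.737, 1.16 and 0.567 in Piezo1 GOF, a difference of 1.34 on the log2 scale or 2.53-fold. All 3 mutant libraries thus lay above all 3 WT libraries. Junb stood at 0.0893, 0.116 and 0.0991 per count of Jun in WT and at 0.155, 0.240 and 0.174 in Piezo1 GOF, a 1.85-fold difference. For Fosl2 the ratios were 0.904, 0.722 and 0.513 in WT and 1.11, 1.22 and 1.22 in Piezo1 GOF (1.70-fold), and for Dusp1 they were 1.04, 0.983 and 1.83 in WT and 2.49, 2.56 and 2.10 in Piezo1 GOF (1.93-fold). The ratios of Fos, Fosb, Atf3 and Nr4a1 to Jun overlapped between the genotypes.

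These ratios were looked at after the levels had been seen. Of 36 pairs among the 9 tested genes, 4 did not overlap, and all 4 contain Jun (2-sided exact permutation p = 0.1 each, the smallest possible; 0.655 after Benjamini-Hochberg adjustment over the 36). Set against Jun, 4 of the other 8 genes lay higher in all mutant libraries, while 15.3% of the 13465 other tested genes did so and 2.33% lay lower. The difference in the log2 ratio of Jund to Jun lay between 1.06 and 1.57 when any 1 library was left out. The overlaps of Jun with Junos and of Jund with Gm11175 touch these ratios, and their part was not tested.

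**Figure D2:**
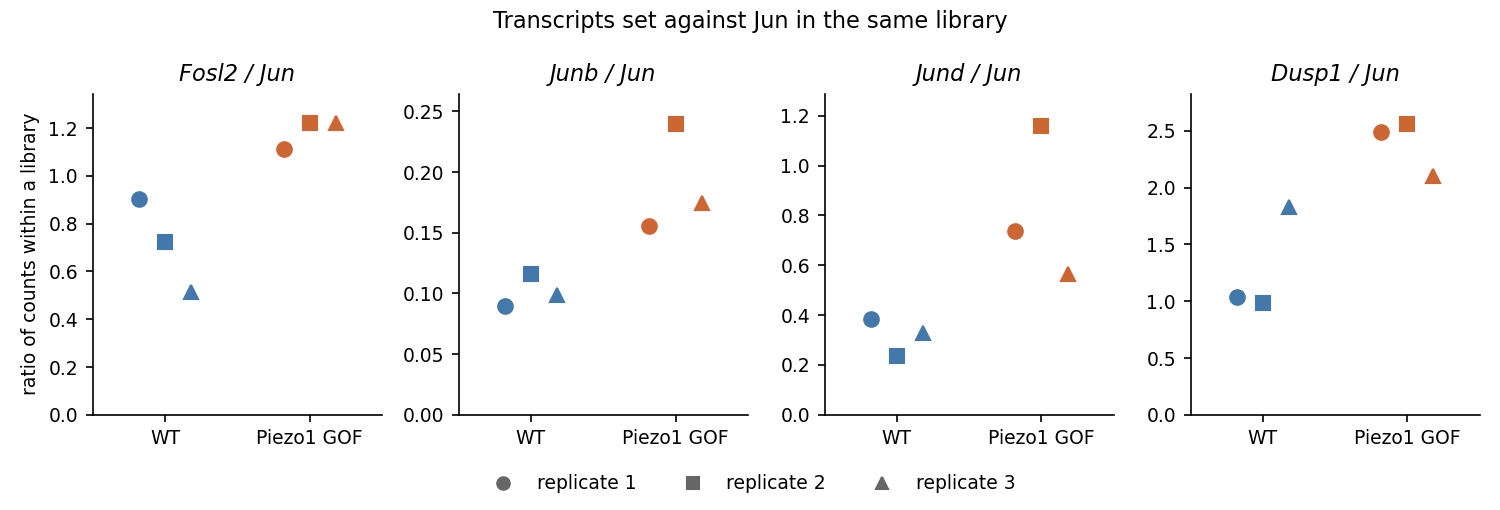
Ratio of the counts of Fosl2, Junb, Jund and Dusp1 to those of Jun within each library (vertical axes from 0), with a symbol per replicate. For all 4 genes the 3 Piezo1 GOF libraries lie above the 3 WT libraries, for Jund from 0.567 upward against 0.384 at most.

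Within a genotype, Fosb, Fos, Atf3 and, in the mutant, Nr4a1 spread more between libraries than Fosl2, Jun and Junb. Between the highest and lowest library, Fosb differed 20.0-fold in WT and 12.7-fold in Piezo1 GOF, and Fos 4.32-fold and 7.13-fold. Atf3 differed 2.86-fold in WT and 3.82-fold in the mutant, and Nr4a1 1.81-fold and 4.59-fold. At the other end stood Fosl2 with 1.54-fold in WT, Jun with 1.64-fold and 1.65-fold, Jund with 1.29-fold in WT, and Junb with 1.45-fold in Piezo1 GOF. In the other genotype Jund differed 2.12-fold (mutant) and Junb 2.13-fold (WT). The SD of log2 CPM of Fos ranked at percentile 94.9 of all tested genes in WT and 98.3 in Piezo1 GOF. That of Fosb ranked at 98.6 and 99.4. Fosl2 ranked at 48.1 in WT and 49.99 in Piezo1 GOF, and Jun at 58.7 and 61.3. Jund ranked at 27.1 in WT but at 80.1 in Piezo1 GOF, and Junb at 76.0 in WT but at 42.0 in Piezo1 GOF. Jun thus spread more than the median tested gene in both genotypes, and Jund did so in the mutant. Over the 9 genes the median SD was 0.54 in WT and 0.61 in Piezo1 GOF, against medians of 0.32 and 0.33 over all tested genes, and 7 of 9 exceeded that median in each genotype. Without Piezo1 GOF replicate 1, the median SD of the 9 genes over the remaining mutant libraries was 0.20. That library was the highest mutant library for all 9 genes, so leaving it out tends to narrow the spread. The value rests on fewer libraries than the medians above and is not comparable with them.

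The same libraries were high or low for nearly all members. Mutant replicate 1 was the highest mutant library for 9 of 9 genes, while it was the highest for 32.2% of all tested genes. WT replicate 1 was the lowest WT library for 8 of 9, the exception being Fosl2, and for 35.6% of all tested genes. Both held at once for 8 of the 9 genes and for 15.5% of all tested genes. Since members share their libraries, these counts are not 9 separate observations. Mutant replicate 1 was also the mutant library with the largest share of skeletal muscle markers (3.50%) and of the ribosomal precursor Rn45s (13.3% against 6.42% and 11.7%). WT replicate 1 had the smallest WT shares of both (4.53% for muscle, and 8.87% against 9.14% and 13.9% for Rn45s), besides the Schwann cell markers above. The part of these in the order of the libraries was not tested.

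**Figure D3:**
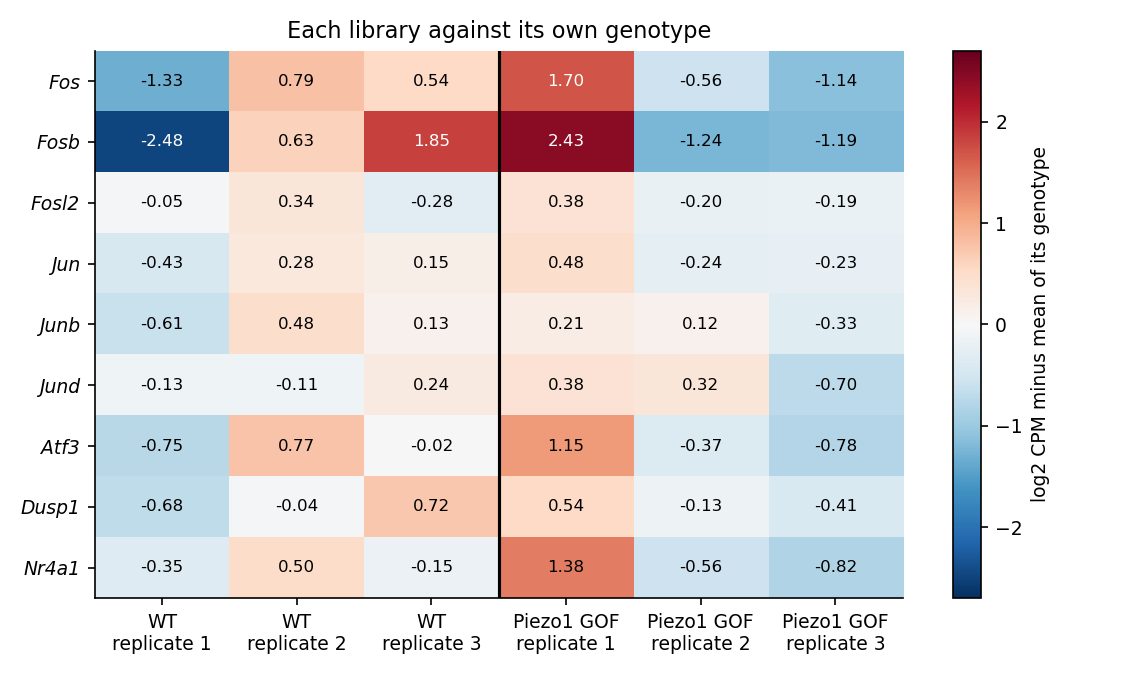
Log2 CPM of the 9 tested genes in each library minus the mean of the 3 libraries of its genotype, with the value in each cell and red for above the mean. The column of Piezo1 GOF replicate 1 is positive for all 9 genes, up to 2.43 for Fosb, and that of WT replicate 1 is negative for all 9, down to -2.48 for Fosb.

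Across the genotypes, none of the 9 tested members passed the threshold in either direction. With the edgeR quasi-likelihood test and an adjusted p under 0.05, 0 members were called, and over all 13466 tested genes the call rate was 0.0149% (2 genes). At an unadjusted p under 0.05, 1 member was higher (Jund) and 0 were lower, against 10.2% higher and 9.59% lower over all genes. The groups overlapped for all 9 members, although 25.6% of all tested genes had groups that did not (13.6% higher and 12.1% lower in the mutant). Log2 fold changes were positive for 6 members and negative for 3, with a median of 0.18, against 49.7% positive, 50.3% negative and a median of -0.0045 over all tested genes. DESeq2, edgeR's exact test and limma voom also called 0 members at an adjusted p under 0.05. Over all genes DESeq2 called 514 higher and 377 lower of 13765. The exact test called 453 and 232, and voom 97 and 19, of 13466 each. At an unadjusted p under 0.05, DESeq2 and the exact test gave 1 higher and 0 lower, and voom gave 0 higher and 1 lower. The shares over all genes at the unadjusted threshold are not given for these tools.

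**Figure D4:**
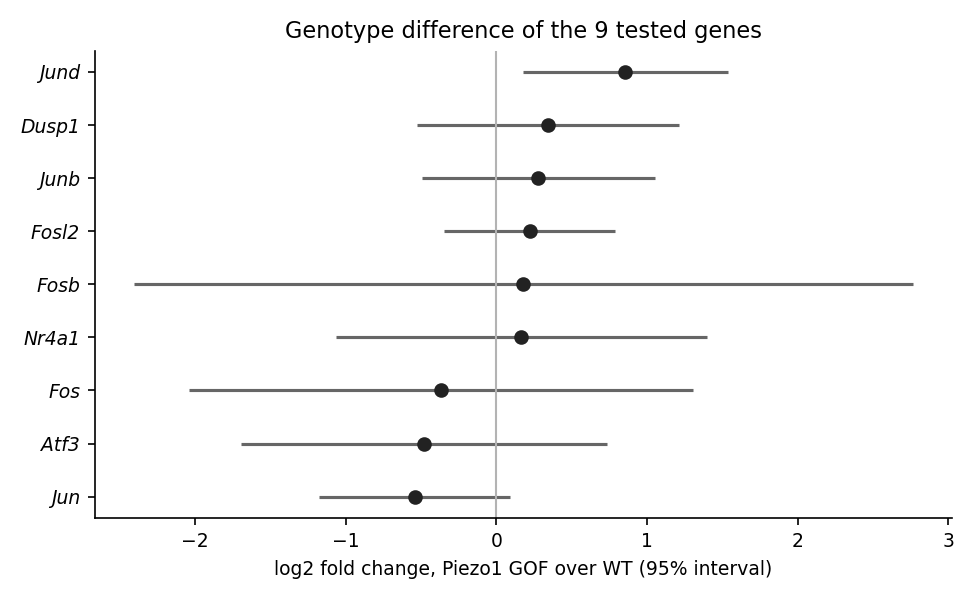
Log2 fold change of each tested gene, Piezo1 GOF over WT (points), with its 95% interval from the edgeR fit over 3 libraries per genotype (lines). The interval of Jund, 0.17 to 1.53, is the only one of the 9 that does not contain 0 before adjustment over all genes.

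One library set much of this picture. Without Piezo1 GOF replicate 1, the log2 fold change was -1.72 for Fos (edgeR adjusted p = 0.168), -1.29 for Atf3 (0.180), -0.87 for Nr4a1 (0.192), -0.82 for Jun (0.175) and -2.03 for Fosb (0.345). Nr4a1 and Fosb thereby changed sign, and 4 members (Fos, Jun, Atf3 and Nr4a1) had an unadjusted p under 0.05 on the lower side, against 10.7% of the 13900 genes tested in that fit. The library left out was the highest mutant library for every tested member, so their shift to lower values was fixed in advance. The share over all genes, most of which were not highest in that library, is therefore no like background for this count. None of them passed over all genes. Jund was at 0.67 without that library (edgeR adjusted p = 0.289) and between 0.74 and 1.14 without any 1 of the other 5, and Jun lay between -0.70 and -0.39 in those 5 fits. Without WT replicate 1, Fos was at -0.75 (edgeR adjusted p = 0.549) and Fosb at -0.32 (0.889).

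The other immediate early genes repeated the order of the libraries in part and likewise showed no common direction between the genotypes. Of 37 in this list, 35 were tested. Mutant replicate 1 was the highest mutant library for 22 of them and WT replicate 1 the lowest WT library for 23, and both held for 16 (45.7%, against the 15.5% of all tested genes), such as Egr1, Ier2, Klf4, Nr4a3 and Zfp36. Egr1, a zinc finger factor induced together with Fos, was at 17.6, 60.9 and 44.8 CPM in WT and at 68.0, 51.9 and 27.0 CPM in Piezo1 GOF. It therefore shared the low WT replicate 1 with Fos but not the low mutant replicate 2. By edgeR 0 of the 35 passed over all genes, 1 was higher and 2 were lower at an unadjusted p under 0.05 (10.2% and 9.59% of all genes), and the median log2 fold change was -0.05. The smallest p belonged to Trib1, a pseudokinase, with a mean of 45.1 CPM in WT against 14.9 in the mutant (-1.60 ± 0.36; edgeR adjusted p = 0.104), followed by the polo-like kinase Plk3 (0.83 ± 0.35; 0.244), the kinase Sik1 (-0.77 ± 0.34; 0.252) and Errfi1, a feedback inhibitor of the EGF receptor (-0.74 ± 0.34; 0.267). DESeq2 and edgeR's exact test each called Trib1 lower and no other gene of this list, and voom called 0.

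Upstream of AP-1, Mapk12, Map2k4, Map2k3 and Map2k7 had lower values in Piezo1 GOF without passing over all genes. Map2k6 was lower too, with no overlap (-0.60 ± 0.28; edgeR unadjusted p = 0.0572, adjusted p = 0.266). Others such as Mapk9 (0.20), Mapk14 (-0.11) and Mapk8 (-0.26) lay closer to 0 on the log2 scale. Map2k6, Mapk9, Mapk14 and Mapk8 were named after their values were seen. Of 15 tested MAP kinases and MAP kinase kinases, 3 had positive and 12 negative log2 fold changes, with a median of -0.30, and by edgeR 4 were lower and 0 higher before adjustment at p under 0.05, against 9.59% lower and 10.2% higher over all genes (0 after adjustment, while DESeq2 called Mapk12 lower and the exact test and voom called 0). Those 4 were Mapk12, the p38 gamma kinase that is abundant in skeletal muscle (-0.75 ± 0.21; edgeR adjusted p = 0.142), Map2k4 (-0.71 ± 0.24; 0.185), Map2k3 (-0.67 ± 0.24; 0.194) and Map2k7 (-0.57 ± 0.24; 0.239). Skeletal muscle markers were also lower in all mutant libraries. With the muscle score as a covariate, the log2 fold change was -0.67 for Mapk12 (edgeR unadjusted p = 0.0158), -0.53 for Map2k4 (0.0487), -0.50 for Map2k3 (0.0606) and -0.37 for Map2k7 (0.132). Because the muscle markers did not overlap between the genotypes, this fit cannot fully tell muscle content and genotype apart. The count of 4 dropped to 2 when WT replicate 2 was left out, and to 1 when WT replicate 3 or mutant replicate 2 or 3 was. Srf itself averaged 58.3 CPM in WT against 34.3 in the mutant, with no overlap (-0.77 ± 0.28; edgeR unadjusted p = 0.0221, adjusted p = 0.196). With the muscle covariate it was at -0.55 (edgeR unadjusted p = 0.0579), and its unadjusted p was also above 0.05 without WT replicate 2 or 3 or Piezo1 GOF replicate 2 or 3. Among its 10 companions in a list of ternary complex factors, CREB and coactivators, none had an unadjusted p under 0.05 by edgeR, and the list of 11 had a median of -0.06. Next to Srf the smallest p values were those of its coactivator Mkl2 (-0.35 ± 0.22), Elk3 (0.31 ± 0.22) and Crtc3 (-0.28 ± 0.20).

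The relatives of the members were split in direction. Of 8 tested further AP-1 leucine zipper genes, 4 had positive and 4 negative log2 fold changes (median 0.09), with 0 past the adjusted threshold by edgeR and 2 higher at an unadjusted p under 0.05 (10.2% of all genes). They were Jdp2, a Jun dimerization protein that represses AP-1, with a mean of 23.2 CPM in WT against 43.1 in the mutant (0.90 ± 0.36; edgeR adjusted p = 0.220) and Maf (0.66 ± 0.28; 0.242). Mafk was at -0.35 ± 0.27. Of 6 other MAP kinase phosphatases, 2 were positive and 4 negative (median -0.35), among them Dusp7 (0.61 ± 0.22; edgeR adjusted p = 0.197), Dusp4 (-1.09 ± 0.56), Dusp8 (-0.79 ± 0.41) and Dusp16 (-0.56 ± 0.29). DESeq2, the exact test and voom called 0 genes of these lists or of the Srf list.

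Genes known as AP-1 targets mostly had higher values in the mutant. Of 11 tested, 10 had positive log2 fold changes with a median of 1.09, and by edgeR 0 passed over all genes while at an unadjusted p under 0.05 there were 6 higher genes and 1 lower gene, against 10.2% and 9.59% of all tested genes, of which 49.7% had positive values. Osteopontin (Spp1) was at 201, 52.5 and 144 CPM in WT and 849.8, 1433 and 1214 CPM in Piezo1 GOF (3.14 ± 0.51; edgeR adjusted p = 0.0572). The monocyte chemokine Ccl2 (2.96 ± 0.63; 0.103) and the metalloproteinase inhibitor Timp1 (2.08 ± 0.54; 0.127) were also higher in all mutant libraries. DESeq2 and the exact test each called Spp1, Ccl2, Timp1 and Mmp3 higher and 1 gene of the list lower, and voom called Spp1 alone. Mmp3 was at 5.91, 0.575 and 3.39 CPM in WT and at 10.1, 14.7 and 92.9 CPM in Piezo1 GOF, so replicate 3 carried most of its mutant mean. The library that was highest among the mutants for 9 of these 11 was replicate 3, which was lowest for 6 of the 9 members and highest for 28.1% of all tested genes. Mutant replicate 1, highest for every tested member, was highest for 0 of the 11. Macrophage markers, 10 of 10 with positive log2 fold changes, were likewise higher in the mutant. Bone markers, which include Spp1, were so too and made up 0.00726% to 0.0429% of counts in WT against 0.167% to 0.352% in the mutant. Their largest share was in mutant replicate 2, not in replicate 3. Their part was not tested.

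Heat-shock chaperones, which heat and other stresses induce, mostly had lower values in the mutant. Of 11 tested, 3 had positive and 8 negative log2 fold changes (median -0.32), with 0 past the adjusted threshold by edgeR and 3 lower at an unadjusted p under 0.05, against 9.59% lower over all genes, of which 50.3% had negative values. Those were Hsph1 (-0.74 ± 0.19; edgeR adjusted p = 0.128), the small chaperone Hspb1 (-1.05 ± 0.30; 0.145) and Hsp90ab1 (-0.80 ± 0.35; 0.249), and Hspa8 was at -0.61 ± 0.32 (0.323). The inducible Hspa1a was at 33.1, 100.3 and 36.1 CPM in WT and at 51.0, 11.9 and 16.6 CPM in Piezo1 GOF, with mutant replicate 1 the highest mutant library, but over the 11 chaperones replicate 2 was highest for 7 and replicate 1 for 4. DESeq2 called Hspb1 and Hsph1 lower, the exact test Hspb1 alone, and voom 0. With the muscle covariate, which cannot be fully told apart from genotype, the log2 fold change was -0.67 for Hsph1 (edgeR unadjusted p = 0.00891) and -1.03 for Hspb1 (0.0188).

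**Figure D5:**
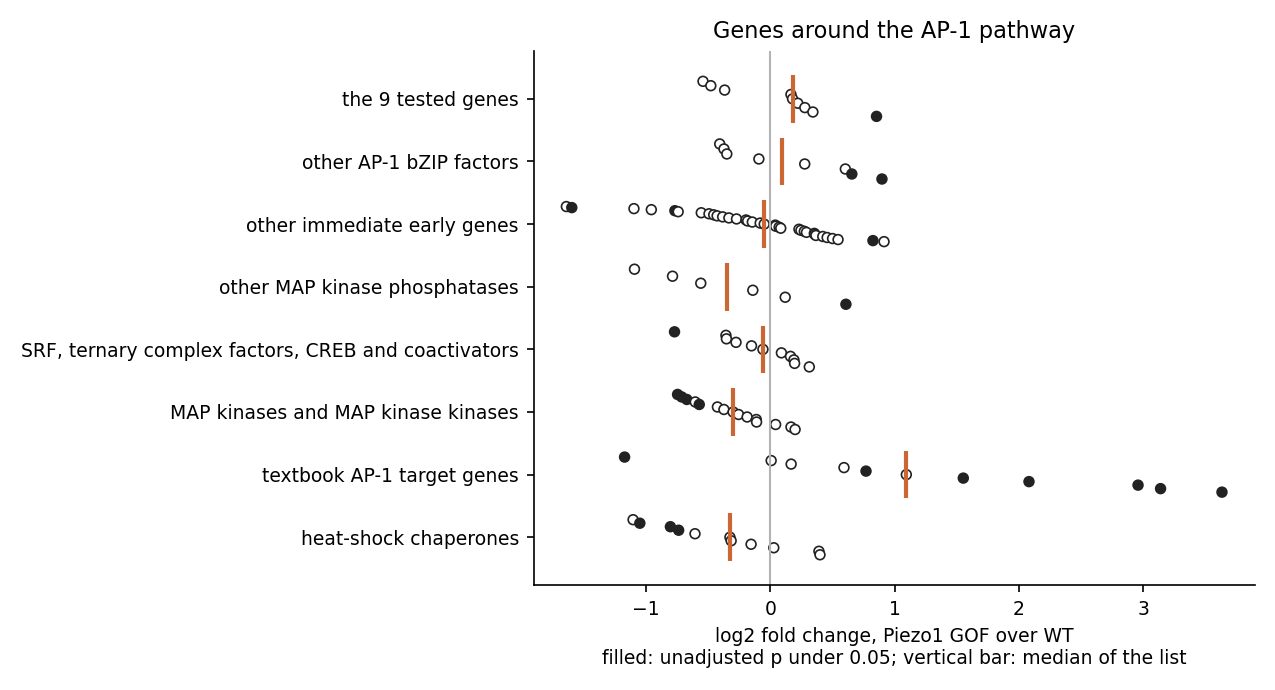
Log2 fold changes, Piezo1 GOF over WT, of the 9 tested genes and of the tested genes of 7 lists around the AP-1 pathway (points; filled where the unadjusted edgeR p was under 0.05), with a bar at the median of each list. The target genes sit to the right with a median of 1.09, while the tested members centre at 0.18 and the MAP kinases at -0.30.

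Outside these lists, the genes whose pattern was most like the mean of the members over the 6 libraries were Ctc1, Irgq, Fzd9, Tcf25, Pcnxl3 and Trip11. They were picked as the 6 highest Pearson coefficients of log2 CPM among 10362 genes, and had r of 0.95 to 0.97 and Spearman's rho of 0.89 to 0.94 over 6 libraries, which is a description with no test, and all points share the 6 libraries and their scaling. Fzd9, a Wnt receptor gene, had the widest range of the 6, at 45.4, 91.1 and 73.5 CPM in WT and at 119, 65.4 and 41.1 CPM in Piezo1 GOF. Tcf25 moved over a narrower range, at 134, 176 and 163 CPM in WT and at 191, 136 and 141 CPM in Piezo1 GOF.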

How the data were processed

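Total RNA of 6 Achilles tendon samples was made into libraries with the RamDA-seq kit and its mouse primers, per the labels' protocols. The table the authors deposited holds expected counts per gene with no scaling. That unit was read from the values, since 7.80% to 8.88% of them in a library were not whole. The tools named in the submitters' processing notes are bcl2fastq, STAR, RSEM and edgeR, with build mm10. Which versions, annotation and strand setting were used is not stated there.

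Expected counts were rounded. Genes were filtered with filterByExpr (minimum count 10), scaled by TMM and tested in edgeR (glmQLFit and glmQLFTest, 2-sided), without covariates, with Benjamini-Hochberg adjustment over 13466 genes and a threshold of 0.05. The SE is the absolute log2 fold change over the square root of F, and 95% intervals use its degrees of freedom. The common dispersion of 0.113 with 3 libraries per genotype sets the precision. On simulated counts for 13466 genes the fit recovered 16% of 50 genes changed 2-fold, 76% at 4-fold and 92% at 8-fold. The simulated counts were drawn gene by gene, without deviations shared by the genes of a library. These recovery rates may therefore be too high for the data themselves, where Spp1 at 8.81-fold did not pass. SDs of log2 CPM used a prior count of 2. Replicates of a genotype differed by a chi-square per degree of freedom of 38.7 to 133, so none was a copy.

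The 10 members and all lists (7 pathway lists of 109 genes, and 11 marker lists) were chosen with earlier results of these data known. All members are named, and of each pathway list the 4 tested genes with the smallest p, apart from a few that are not reported here. Egr1, Ier2, Klf4, Nr4a3, Zfp36, Mmp3, Hspa1a, Map2k6, Mapk8, Mapk9 and Mapk14 were chosen after their values were seen. Coordinates and exon lengths are from GENCODE mouse release 21 on the same build. Alternatives were other scalings, filters and tools (DESeq2, exact test, voom), a replicate block, removal of muscle, erythroid and ribosomal genes, a muscle covariate and leaving out each library. For the spread, the ratio of Jund to Jun, the marker lists and the order of the libraries, leaving out libraries or rescaling was chosen after seeing the data. The tools were edgeR 4.0.16, DESeq2 1.42.0 and limma 3.58.1 in R 4.3.3, with scipy 1.17.1, pandas 2.3.3 and matplotlib 3.10.9 in Python 3.11.15.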

Additional observations from a re-analysis of the deposited data

How the results depend on the processing

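The count of members past the adjusted threshold was 0 higher and 0 lower in all 16 alternative fits. Jun (negative), Jund, Junb and Dusp1 (positive) kept their direction in all 16, but not their size. Leaving out 1 library moved Dusp1 between 0.017 (mutant replicate 1 left out) and 0.78 (WT replicate 3 left out), and Junb between 0.052 (without WT replicate 1) and 0.54 (without WT replicate 2). Jund was at 0.49 with voom against 0.85. Fosb changed sign with voom (-0.81), with the replicate block (-0.64), without WT replicate 1 (-0.32) and without Piezo1 GOF replicate 1 (-2.03), and reached 1.14 without WT replicate 3. Nr4a1 did so with voom (-0.23), the block (-0.17) and without Piezo1 GOF replicate 1 (-0.87; up to 0.55 without another library). Fos changed sign with the muscle covariate (0.17) and without Piezo1 GOF replicates 2 (0.00303) or 3 (0.091), against -1.72 without replicate 1. Atf3 did so with the covariate (0.034) and Fosl2 without Piezo1 GOF replicate 1 (-0.00044; up to 0.41 without another library). The cause was not tested, and the muscle covariate cannot be fully told apart from genotype.

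Over all genes, 2 were called higher and 0 lower. The counts were 141 and 24 with no filter, 514 and 377 with DESeq2, 453 and 232 with edgeR's exact test, and 97 and 19 with voom. With the replicate block and with the muscle covariate 0 were called higher. Leaving out 1 library gave 0 to 182 higher and 0 to 46 lower, the largest without WT replicate 1. Same-numbered libraries of the genotypes did not deviate together (r of -0.21, -0.14 and -0.05 over genes). With so few libraries this check cannot exclude that they were paired, and the labels do not say. The replicate block changed no call of a member (edgeR adjusted p of Jund 0.378). The log2 ratio of summed Schwann cell markers was -3.86 with all libraries and between -4.44 and 1.32 with 1 left out, positive without WT replicate 1. The member count highest in Piezo1 GOF replicate 1 was 9 under each scaling tried, and that lowest in WT replicate 1 was 7 or 8. At this depth and dispersion a 2-fold change was mostly not detectable, and Fosl1 could not be tested.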
